A study of Rattus norvegicus with 6 samples.

Results

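Pancreatic lipase (Pnlip) and 6 other genes of neutral lipid breakdown and lipid droplets were followed in cultured rat oligodendrocyte precursor cells. The genes were picked by symbol from the 32662 in the deposited expression table. All 7 were found, 6 were above 0 in at least 1 library, and 4 (Pnlip, Lpl, Lipe and Mgll) reached 1 FPKM in 3 or more libraries and so entered the test across genes. FPKM counts fragments per kilobase of gene and scales them to all fragments of a library, so levels can be compared between genes of different length. The set was chosen because Pnlip differed between the groups, so the Pnlip difference is described here without a test.

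The series held 3 control and 3 fibril libraries. All came from cerebral cortex precursor cells of Sprague-Dawley rats, taken from mixed glia of pups 1 to 2 days old grown with 20% serum. Precursors collected from the mixed glia spent 4 to 5 days in a medium with 2% B27 and the mitogens PDGF and FGF, 10 ng/ml of each. Fibril cultures received preformed fibrils of human alpha-synuclein for 72 hours; controls are labelled only as such. Separate cultures or animals are not stated for the libraries of a group, and p-values then reflect the spread of these samples alone, which may be technical.

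Neutral lipids, mainly triglycerides and sterol esters, are stored in cytosolic droplets or carried in lipoproteins, and lipases release fatty acids from them. Inside cells adipose triglyceride lipase (Pnpla2), hormone-sensitive lipase (Lipe) and monoglyceride lipase (Mgll) act in sequence, while perilipins (Plin genes) coat the droplet. Outside cells lipoprotein lipase (Lpl) works at the cell surface, and Pnlip encodes the digestive lipase that pancreatic acinar cells secrete with its cofactor colipase. Fatty acids are building material for the myelin membrane that oligodendrocytes make.

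Pnlip lies on chromosome 1, at 279798186 to 279811372 in the coordinates of the deposited table, for which the sources used here give no build. The 250 bases before its RefSeq start are shown because they are the sequence next to the gene whose level differed. They lie on the plus strand of build GRCr8 at chr1:267784360-267784609, and capitals mark motif matches.
Pnlip upstream window: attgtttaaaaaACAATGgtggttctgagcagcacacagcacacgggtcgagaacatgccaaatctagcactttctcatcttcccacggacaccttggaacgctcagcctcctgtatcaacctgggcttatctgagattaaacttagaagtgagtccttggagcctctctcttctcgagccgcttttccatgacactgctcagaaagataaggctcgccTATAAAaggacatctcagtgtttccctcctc
Letters of 3 motifs were searched on both strands, and no matches overlapped. The TATA box letters TATAAA began 31 bases before the start and occur in 12.9% of 33469 RefSeq windows of the same length. The letters ACAATG, which SOX factors can bind, began 238 bases before the start and occur in 11.1% of windows. The E-box letters CANNTG, present in 65.5% of windows, were not in this window. These matches are a description of the letters only, and the RefSeq gene record also begins further upstream.

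The libraries differed in depth. Replicate 1 of both groups had the coarsest values. In control replicate 1 a single fragment was worth 4.03 times, and in fibril replicate 1 6.92 times, as many FPKM as in control replicate 2; in the other libraries it was worth 0.812 to 1.95 times as many. The share of summed FPKM from mitochondrial genes was 80.3% in control and 75.6% in fibril replicate 1, and 12% to 40.1% in the other libraries. Hprt1 and Rps6, which most cell types express, stood at 0 in each of the 6 libraries, so a listed 0 can be a failed estimate. Of the labelled precursor identity, all 10 precursor markers in the table were above 0 and tested, with a summed level of 1666 to 2688 FPKM in control cultures and 1239 to 1509 FPKM with fibrils.

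Pnlip had 10.8, 1.51 and 3.29 FPKM in control replicates 1, 2 and 3, and 77.5, 27.3 and 134 FPKM in fibril replicates 1, 2 and 3. Every fibril library lay above every control library, the nearest being fibril replicate 2 and control replicate 1. The control mean was 5.20 ± 4.94 FPKM and the fibril mean 79.7 ± 53.6 FPKM (SD, n = 3 each), a ratio of 15.3. On the log2(FPKM + 1) scale the difference was 3.74 (SE 0.71). This scale adds 1 FPKM before taking logs and understates the change of low genes.

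The labels state no pairing of libraries by replicate number. Within numbers 1, 2 and 3 the fibril library held 7.17, 18.1 and 40.9 times the Pnlip FPKM of the same-numbered control. The gene was therefore higher with fibrils at each number, as were 16.9% of the genes tested, but the size of the step varied widely. Leaving out 1 library at a time gave log2 differences from 3.23 to 4.36. Divided by the worth of a fragment in each library, in units of control replicate 2, Pnlip had 2.68, 1.51 and 4.05 in controls and 11.2, 20.8 and 69.1 with fibrils. In those units fibril replicate 1 gave the fewest fragments of the fibril libraries, although its FPKM was the second highest.

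The place of Pnlip among all genes shifted with its level. Of 15949 genes above 0 in at least 1 library, 7529 (47.2%) had a higher control mean than Pnlip. With fibrils 930 (5.83%) had a higher mean. In control replicate 2 Pnlip (1.51 FPKM) was below Lpl, Lipe and Mgll, and in control replicate 3 (3.29 FPKM) below Lpl and Mgll, whereas in each fibril library it was above each of the other 6 members.

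**Figure D1:**
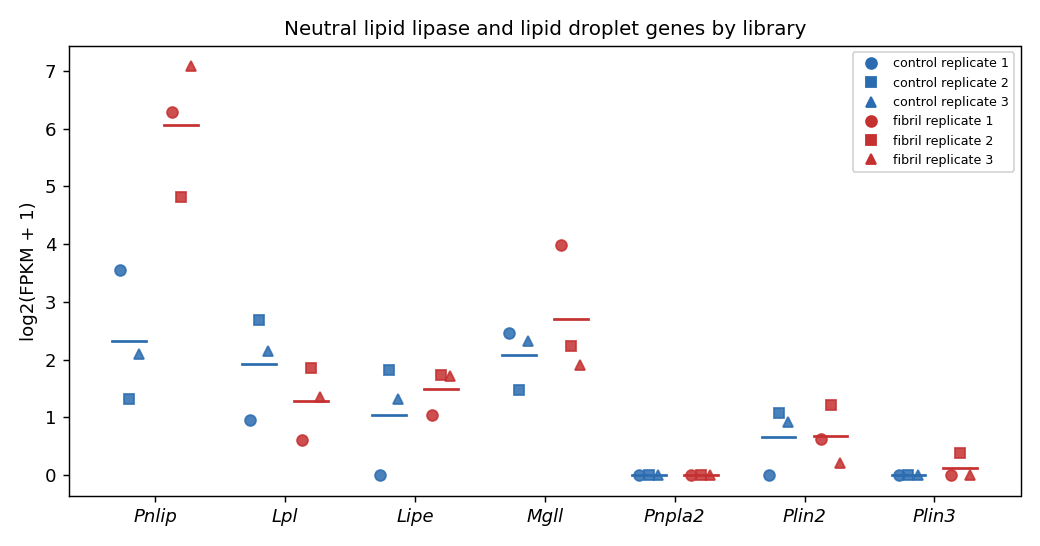
Level of each of the 7 genes as log2(FPKM + 1) in every library (controls blue and fibril libraries red, one marker shape per replicate number, horizontal lines the group means). The groups are apart for Pnlip, with controls at 1.51 to 10.8 FPKM and fibril libraries at 27.3 to 134 FPKM, and overlap, or are at 0 throughout, for the other 6 genes.

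Across all 10766 genes tested with limma, 0 passed an adjusted p of 0.05 in either direction (0%), while 433 (4.02%) had an unadjusted p under 0.05. Of the 3 tested genes other than Pnlip, 0 passed and 0 had an unadjusted p under 0.05. A limma fit blocked on the replicate number called 12 genes higher (0.111%) and 0 lower (0%), and 1059 (9.84%) then had an unadjusted p under 0.05, of which 0 were Lpl, Lipe or Mgll. Pnlip was among the 12 and was the only one of the 4 tested members there; since it was chosen for this difference, nothing is read from that. The groups did not overlap for 457 genes in the higher direction (4.24%) and 571 in the lower direction (5.3%), or 9.55% together, and Pnlip was again the only one of the 4.

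Lpl, whose secreted enzyme cleaves triglycerides of lipoproteins, had the opposite sign. Its values were 0.932, 5.44 and 3.45 FPKM in control replicates 1, 2 and 3 and 0.534, 2.63 and 1.57 FPKM in the fibril libraries. The groups overlapped, because control replicate 1 lay below fibril replicates 2 and 3, but at each replicate number the fibril library was lower. The ratios within numbers 1, 2 and 3 were 0.573, 0.483 and 0.455. A lower value at each number was seen for 2073 of the tested genes (19.3%).

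The Lpl difference of -0.65 (SE 0.55, log2 scale) did not pass by limma without a block (adjusted p = 0.96) or with it (adjusted p = 0.511). The control mean was 3.27 ± 2.26 FPKM and the fibril mean 1.58 ± 1.05 FPKM (SD, n = 3 each). Lpl was also divided by the worth of a fragment in each library, in units of control replicate 2. It then had 0.231, 5.44 and 4.24 in control replicates 1, 2 and 3. With fibrils it had 0.0772, 2.01 and 0.806. The ratio at number 1 thus rests on far fewer fragments than the ratios at numbers 2 and 3. The gene lies on chromosome 16, at 22537055 to 22561496 in the deposited table.

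Lipe, hormone-sensitive lipase (chromosome 1, 82248045 to 82266727), had 0, 2.53 and 1.51 FPKM in control replicates 1, 2 and 3 and 1.06, 2.31 and 2.29 FPKM with fibrils. The listed 0 fell in control replicate 1, one of the coarse libraries. The difference of 0.45 (SE 0.52) did not pass by limma (adjusted p = 0.96), and it was -0.08 without control replicate 1. No direction can be read for Lipe.

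Mgll, which encodes the enzyme that cleaves monoglycerides and the endocannabinoid 2-arachidonoylglycerol, lies on chromosome 4 (120671488 to 120771088). It had 4.51, 1.78 and 3.98 FPKM in control cultures and 14.8, 3.69 and 2.75 FPKM with fibrils. Fibril replicate 1 stood alone at the top, and the other fibril libraries lay within the control range. The difference of 0.62 (SE 0.59) did not pass by limma (adjusted p = 0.96) and was -0.02 without fibril replicate 1.

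The droplet genes were low. Plin2, a perilipin found on droplets of many cell types (chromosome 5, 104984413 to 105010857), had 0, 1.1 and 0.897 FPKM in control cultures and 0.543, 1.33 and 0.154 FPKM with fibrils, below the level needed for testing. The groups overlapped. Plin3, a perilipin that moves between cytosol and droplets (chromosome 9, 10773900 to 10781109), was listed at 0 in 5 libraries and had 0.3 FPKM in fibril replicate 2. Pnpla2, the adipose triglyceride lipase (chromosome 1, 214434625 to 214439720), was listed at 0 in all 6 libraries, as were Hprt1 and Rps6, so no statement on its expression can be made.

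In controls the order of mean levels was Pnlip (5.20 FPKM), Mgll (3.43), Lpl (3.27), Lipe (1.34) and Plin2 (0.665). The ranges of each neighbouring pair in that order overlapped between libraries, so the order is not firm. With fibrils the order was Pnlip (79.7 FPKM), Mgll (7.06), Lipe (1.89), Lpl (1.58) and Plin2 (0.676). There the Pnlip range did not meet that of Mgll (2.75 to 14.8 FPKM), and all later neighbours overlapped except Mgll and Lipe.

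The pancreatic relatives of Pnlip were at 0 in this table. Pnliprp1 and Pnliprp2, lipase-related neighbours that follow it on chromosome 1, were listed at 0 in all 6 libraries, as was the colipase gene Clps. In the extracellular lipase list 10 of 14 genes in the table were at 0 throughout. Apart from Pnlip and Lpl, only Lipg (endothelial lipase) and Cel (bile salt lipase) were above 0 in any library, Lipg at most 0.533 FPKM and Cel at 0.0915 FPKM in fibril replicate 2. Fragments shared between related lipase genes could be assigned to one of them, and how the authors' counting handled this is not given in the sources used here.

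Of the 10 nearest genes around Pnlip, 5 on each side in the deposited coordinates, 8 were listed at 0 throughout. Gfra1, a receptor of the GDNF family that starts the signal of that neurotrophic factor, ends 520846 bases before Pnlip. It had 3.66, 12 and 19.4 FPKM in control cultures and 1.99, 6.11 and 5.48 FPKM with fibrils, lower at each replicate number while Pnlip was higher. Its difference of -1.06 did not pass by limma (adjusted p = 0.96). Hspa12a was above 0 only in control replicates 2 and 3, at 0.0217 and 0.0353 FPKM.

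Markers of pancreatic acinar cells were checked because Pnlip is best known from them. Of 15 in the table, 10 were at 0 in every library, among them Prss1, Cpa1, Cpb1, Cela1, Clps and Ptf1a. A listed 0 can be a failed estimate here, and the part of acinar transcripts in the Pnlip values was not tested. Most of the summed acinar level, 7.94 to 16.8 FPKM in control cultures and 12.3 to 16.1 FPKM with fibrils, came from the transcription factor gene Rbpjl (12.9, 14.5 and 6.68 FPKM in controls, 9.96, 14.4 and 8.62 FPKM with fibrils). Ctrb1, a chymotrypsinogen gene, was at 0 in controls and had 0, 0.48 and 1.08 FPKM with fibrils. Of 8 adipocyte markers, 7 were at 0 throughout.

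Markers of differentiating oligodendrocytes had the same sign as Pnlip. All 10 tested of 12 in the list had positive log2 differences, with a median of 1.88 against -0.04 over all genes, and in 7 of the 10 the groups did not overlap in the higher direction (4.24% of all genes). None of the 12 was at 0 throughout. By limma 0 passed without a block (8 had an unadjusted p under 0.05) and 2, Enpp6 and Mag, rose with it. The summed level was 1288 to 5534 FPKM in control cultures and 5146 to 10078 FPKM with fibrils. Replicate 1 had the highest sum in both groups, and Bcas1 made up most of the sum in those libraries. It had 4033, 711 and 725 FPKM in control cultures and 6463, 2616 and 2040 FPKM with fibrils. Pnlip was highest in replicate 1 among controls and in replicate 3 among fibril libraries. So were Sirt2 and Cnp, the next of the list by mean level. Not every marker shared this, as Mag was highest in replicate 3 of both groups and Enpp6 in replicate 1 of both. In bulk RNA, more cells of a type and more RNA per cell cannot be told apart. The part of these markers in the Pnlip difference was not tested.

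Other marker lists are given beside these. Microglia and macrophage markers summed to 2 to 47.4 FPKM in control cultures and 13.5 to 62.3 FPKM with fibrils, with 5 of 7 tested markers positive, a median of 0.96 and 0 called by limma (2 with an unadjusted p under 0.05). In 1 of the 7, Cd14, the groups did not overlap, in the higher direction (4.24% of all genes). In fibril replicate 1, where Pnlip had 77.5 FPKM, Cd68 had 7.56, Cd14 2.39, Tyrobp 1.93 and P2ry12 1.66 FPKM. Aif1, C1qa, C1qb, C1qc, Cd74, Csf1r, Cx3cr1, Ptprc and Trem2 were listed at 0 there. That library had the coarsest values of all, so a 0 for a low gene says little. In fibril replicates 2 and 3 Aif1 had 9.94 and 7.95 FPKM and C1qa 2.93 and 3.23 FPKM. Of the genes listed at 0, only Cx3cr1 was at 0 in both of these libraries, and Cd74 was at 0 in fibril replicate 2. Cd14, Cd68 and Tyrobp were higher with fibrils at each replicate number, and the other markers were not. C1qa, C1qb, C1qc, Cd74, Csf1r, Cx3cr1, P2ry12 and Trem2 were lower with fibrils at number 2, and Aif1 at number 1. The part of microglia and macrophage markers in the Pnlip difference was not tested. Astrocyte markers summed to 243 to 267 FPKM in control cultures and 122 to 282 FPKM with fibrils, with 8 of 10 tested markers negative, a median of -1.15 and 0 called by limma (6 with an unadjusted p under 0.05). The groups did not overlap for 4 lower astrocyte markers (5.3% of all genes) and for 1 higher one, Gfap, against the sign of its list (means 0.582 and 11.6 FPKM). Precursor markers had 9 of 10 negative differences, a median of -0.75, 0 called by limma (0 with an unadjusted p under 0.05) and 0 without overlap. Of 7 tested neuron markers, 7 were negative, with a median of -0.62 and 0 called by limma (1 with an unadjusted p under 0.05). For 3 of the 7 the groups did not overlap, in the lower direction (5.3% of all genes). The neuron list summed to 273 to 602 FPKM in control cultures and 112 to 398 FPKM with fibrils. Map2 was the largest part of that sum in every library (454, 184 and 244 FPKM in controls, 325, 219 and 55.1 FPKM with fibrils). Slc17a7 was at 0 throughout, and Gad1 had at most 1.25 FPKM. Endothelial and mural markers summed to at most 0.853 FPKM in any library.

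**Figure D2:**
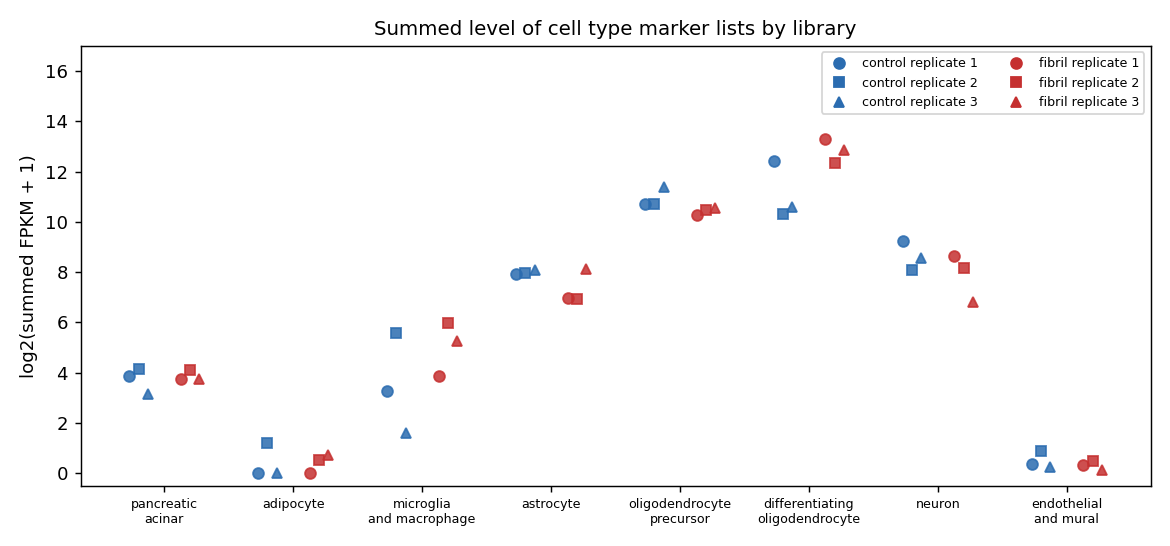
Summed FPKM of each cell type marker list in every library, as log2(sum + 1), with colours and shapes as in the plot of the 7 genes. Differentiating oligodendrocyte markers reached 5146 to 10078 FPKM with fibrils, and adipocyte and endothelial markers stayed near 0.

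The genes whose pattern over the 6 libraries was most like that of Pnlip included Enpp6 and Mag, both also in the list of differentiating oligodendrocyte markers. Likeness was the root mean square difference between profiles of log2(FPKM + 1) after subtracting each gene's mean, over 10765 genes; the median gene was 2.19 log2 units away. Closest was Enpp6 (0.49), a phosphodiesterase of newly formed oligodendrocytes. Caly (0.60), Lcn2 (0.74), the siderophore-binding lipocalin 2, Mag (0.75), an adhesion protein of myelin, Tubb4a (0.76), a tubulin, Dbndd2 (0.78) and Mbp (0.87), myelin basic protein, followed. The 9th gene was 0.90 away. Since Pnlip was chosen for its group difference, genes with a large difference of the same sign come first by construction.

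Ratios within a library do not depend on how the library was scaled. Pnlip over Enpp6 was 0.819, 1.33 and 1.18 in controls and 1.07, 0.622 and 1.94 with fibrils, a 3.11-fold span over all 6 libraries, while Pnlip itself spanned 1.51 to 134 FPKM. Pnlip over Caly was 0.478, 0.395 and 0.752 in controls and 1.34, 1.21 and 1.3 with fibrils, so that every fibril library had more Pnlip per Caly than every control.

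Pnlip was highest in replicate 1 and lowest in replicate 2 among controls, and highest in replicate 3 and lowest in replicate 2 among fibril libraries. Caly and Dbndd2 had the same order in both groups, which their choice by likeness favours. Of the 10765 tested genes other than Pnlip, 214 (1.99%) had this order. Caly had 22.6, 3.82 and 4.38 FPKM in control cultures and 57.8, 22.5 and 103 FPKM with fibrils. Dbndd2 had 24.5, 9.29 and 13.7 FPKM in control cultures and 86.6, 57.3 and 125 FPKM with fibrils.

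**Figure D3:**
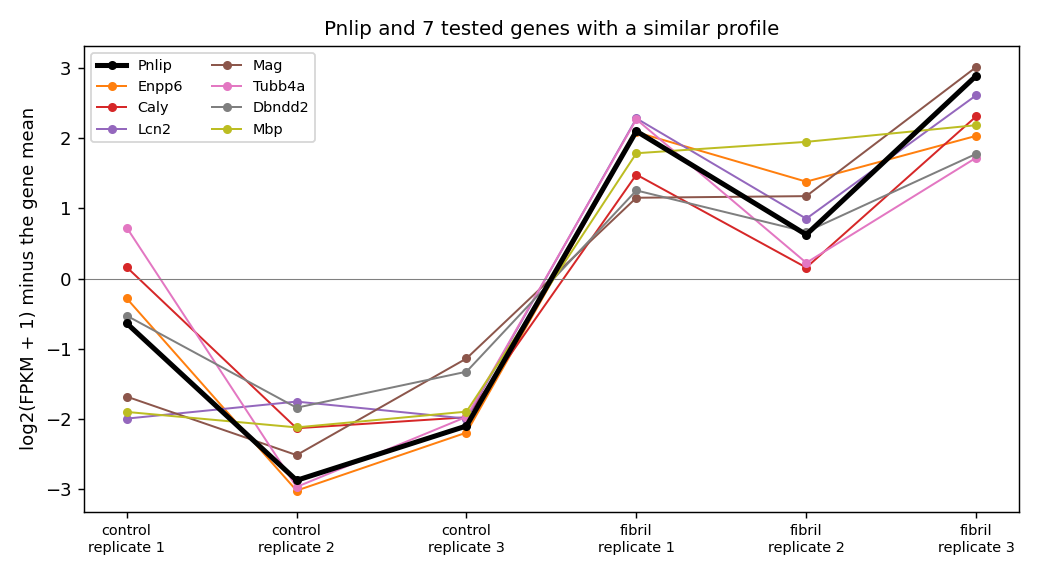
Profiles of Pnlip (thick black line) and 7 of the 8 tested genes most like it, as log2(FPKM + 1) minus each gene's mean over the 6 libraries. Each line lies lower in all 3 control libraries than in all 3 fibril libraries, except that Tubb4a and Caly in control replicate 1 lie above fibril replicate 2. Fibril replicate 2 is the lowest fibril library for all but Mag and Mbp.

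In the rest of neutral lipid metabolism no gene passed the test. Over 6 lists, 125 genes other than the 7 members were looked up, 120 were in the table and 70 were tested. Of these, 39 had positive and 31 negative log2 differences, with a median of 0.03 (all genes -0.04). By limma 0 of the 70 passed in either direction without a block or with it, and 2 had an unadjusted p under 0.05 without the block (Dgat2 and Ppargc1a) and 7 with it. The groups did not overlap for 3 higher and 3 lower genes, against 4.24% and 5.3% of all genes.

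Partners of lipoprotein lipase had 9 tested of 18 genes, 4 positive and 5 negative, with a median of -0.19. Gpihbp1, which carries the enzyme across the capillary wall, was at 0 throughout. Lmf1, a chaperone needed for the folding of Lpl, had 7, 7.15 and 5.94 FPKM in control cultures and 8.82, 8.80 and 14.7 FPKM with fibrils. Its groups did not overlap, in the direction opposite to Lpl, and its difference of 0.58 did not pass by limma (adjusted p = 0.96). Sel1l, a component of endoplasmic reticulum quality control, had 15.2, 14.8 and 29.1 FPKM in control cultures and 17.4, 17.3 and 14.5 FPKM with fibrils. Apoe, the lipid carrier of glia, had 51.3, 73.7 and 68.1 FPKM in control cultures and 12.1, 22.5 and 186 FPKM with fibrils. Fibril replicates 1 and 2 lay below the controls and fibril replicate 3 above them. Lrp1, a lipoprotein receptor, had 9.75, 23.2 and 59.6 FPKM in control cultures and 4.75, 25.4 and 11.1 FPKM with fibrils.

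Among intracellular lipases and their cofactors 16 of 21 genes in the table were tested, 8 positive and 8 negative, with a median of -0.03. Pnpla8, a phospholipase of mitochondria and peroxisomes, had 23.1, 21.0 and 24.0 FPKM in control cultures and 19.7, 17.2 and 4.10 FPKM with fibrils. Its groups did not overlap in the lower direction, and fibril replicate 3 was far below the other 2 fibril libraries. Pnpla3, a close relative of Pnpla2, had 3.03, 2.27 and 2.21 FPKM in control cultures and 1.84, 1.48 and 1.97 FPKM with fibrils. Neither passed by limma (adjusted p = 0.96 for both). Abhd12, a lipase of lysophosphatidylserine and monoglycerides, had 22.7, 34.0 and 45.2 FPKM in control cultures and 27.4, 32.1 and 79.3 FPKM with fibrils. It was expressed well above Mgll in every library. Ddhd1, a phospholipase, had 10.4, 15.3 and 13.2 FPKM against 10.4, 10.6 and 8.80 FPKM.

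Lipid droplet genes had 9 of 21 genes tested, 6 positive and 3 negative, with a median of 0.03. The most abundant were Rab18, a droplet-bound GTPase (52.7, 31.7 and 25.2 FPKM in controls, 60.6, 30.9 and 23.7 FPKM with fibrils), Ubxn4 and Aup1, proteins of endoplasmic reticulum protein turnover. Ubxn4 had 44.4, 21.7 and 27.7 FPKM against 42.3, 20.6 and 31.1 FPKM. Aup1 had 17.6, 38.3 and 31.1 FPKM against 20.3, 30.0 and 68.9 FPKM. These machinery genes were far above Plin2 and Plin3, and no droplet gene had groups that did not overlap.

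Triglyceride and sterol ester synthesis had 16 of 23 genes tested, 9 positive and 7 negative, with a median of 0.09. Agpat4, which acylates lysophosphatidic acid, had 17.2, 10.9 and 15.4 FPKM in control cultures and 27, 17.6 and 75.6 FPKM with fibrils. Acsl1, which activates long-chain fatty acids, had 9.81, 7.43 and 11.8 FPKM against 20.4, 13.3 and 19.0 FPKM. The groups did not overlap for either gene, the log2 differences were 1.16 and 0.80, and neither passed by limma (adjusted p = 0.96 for both). Acsl3, the droplet-associated relative of Acsl1, was the most abundant of the list with 308, 55.7 and 75.6 FPKM in control cultures and 338, 101 and 164 FPKM with fibrils. Gpat4, which starts glycerolipid synthesis, had 31.2, 21.3 and 34.6 FPKM against 33.3, 46.2 and 96.1 FPKM. Agpat1, a relative of Agpat4, had 19.9, 70.6 and 83.9 FPKM against 22.7, 59.8 and 114 FPKM.

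Fatty acid uptake, binding and oxidation had 22 of 30 genes tested, 14 positive and 8 negative, with a median of 0.16. Fabp7, the brain fatty acid binding protein of immature glia, had 1448, 1046 and 586 FPKM in control cultures and 983, 462 and 704 FPKM with fibrils. Fabp5 had 144, 217 and 144 FPKM against 197, 186 and 437 FPKM, and Hadha, a subunit of the mitochondrial trifunctional protein, had 45.9, 68.0 and 95.3 FPKM against 65.3, 78.3 and 164 FPKM. Groups overlapped for all 3. Ppargc1a, a coactivator of mitochondrial and fatty acid oxidation genes, was the gene of this list whose groups did not overlap. It had 5.05, 2.90 and 6.13 FPKM in control cultures and 1.09, 2.16 and 0.508 FPKM with fibrils, and its difference of -1.36 (SE 0.44) did not pass by limma (adjusted p = 0.96 without a block, 0.438 with it).

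**Figure D4:**
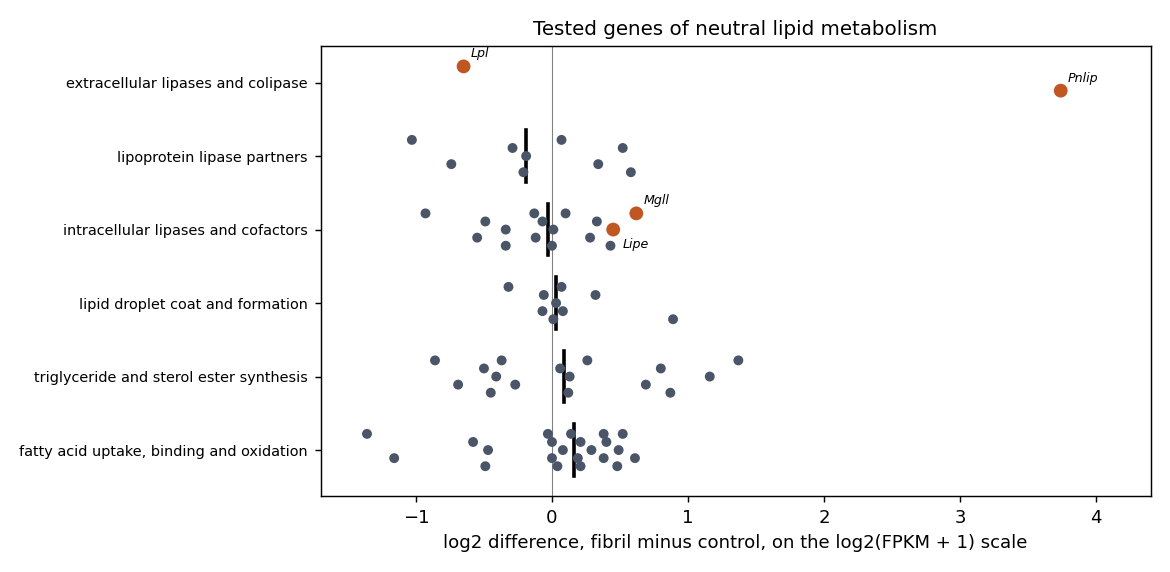
Log2 difference (fibril minus control, on the log2(FPKM + 1) scale) of each tested gene in 6 lists of neutral lipid metabolism; black bars are medians of lists with at least 5 tested genes, and orange points are Pnlip, Lpl, Mgll and Lipe. Pnlip lies at 3.74, while the list medians lie between -0.19 and 0.16.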

How the data were processed

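The authors deposited 1 table of FPKM per gene and library, per the file headers; no depth in fragments is given, and no count model was run. The submitters' processing notes list Trimmomatic and FastQC, with no role for either; for the aligner, quantifier and build, nothing is given in the sources used here. Libraries were prepared with a strand-specific kit, per the labels' protocols. Columns matched libraries by their titles.

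Values were analysed as log2(FPKM + 1) for 10766 genes reaching 1 FPKM in 3 or more libraries. The fit used limma 3.58.1 in R 4.3.3 (mean-variance trend, two-sided, Benjamini-Hochberg, threshold 0.05) and was tested on simulated data. Python 3.11.15 made the tables. An exact permutation test of 3 against 3 cannot go below 0.1. A fragment's worth came from the commonest ratio to control replicate 2 among genes below 0.4 FPKM there and 4 FPKM in the library (tolerance 0.03, log2).

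Deviations from group means correlated across genes at 0.747, 0.364 and 0.216 for libraries numbered 1, 2 and 3. All were above 0.1, the rule for treating the numbers as pairs. The labels state no pairing. Control replicate 3 correlated more with fibril replicate 2 (0.5) than with fibril replicate 3. Control replicate 2 correlated more with fibril replicate 3 (0.433) than with fibril replicate 2. Pairing by number is thus not borne out for numbers 2 and 3, and the within-number ratios and blocked calls depend on it. Blocked values stand where they change a call. In the marker lists limma with the block gave other counts with an unadjusted p under 0.05. These were 9 differentiating oligodendrocyte, 3 microglia and macrophage, 3 precursor and 2 neuron markers, with 6 astrocyte markers as before.

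Members, lists and motifs were chosen with earlier results of these data, or the sequence, in view. Named genes were the 7 members, up to 3 with the highest mean and up to 6 with groups that do not overlap per list, 5 neighbours on each side and the 8 most similar genes, of which 1 is not reported here. Dgat2, Gpihbp1, Clps and the genes under other observations fall outside this rule, as do the markers. Alternatives were 2 pseudocounts (0.1 and 5), other filters and scalings, the replicate block, replicates 2 and 3 only and each library left out.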

Additional observations from a re-analysis of the deposited data

How the results depend on the processing

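Calls over all genes: 0 passed by limma in either direction under both pseudocounts, both other filters, both other scalings and replicates 2 and 3 only, and the replicate block gave 12 higher and 0 lower. With each library dropped in turn there were 0 to 3 higher calls, the 3 in the fit lacking fibril replicate 3, and 0 lower. The block changed no call of Lpl, Lipe or Mgll.

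The Pnlip difference lay between 2.92 (pseudocount of 5) and 4.24 (replicates 2 and 3 only), and between 3.23 and 4.36 with 1 library left out. Lpl ranged from -1.14 to -0.27 with 1 library left out, Lipe from -0.08 to 0.83 and Mgll from -0.02 to 1.02; Lipe turned negative without control replicate 1 and Mgll without fibril replicate 1. Lpl and Lipe could not be fitted with a mean of at least 5 FPKM, Plin2 and Plin3 only without a filter, and Pnpla2 never.

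Scaling without mitochondrial genes moved the median of all genes from -0.04 to -0.33, and those of Lpl partners to -0.50, intracellular lipases to -0.33, droplet genes to -0.28, synthesis to -0.21 and fatty acid use to -0.12. Quantile normalization gave 0.00 over all genes, -0.07 for Lpl partners, 0.12 for intracellular lipases and -0.08 for synthesis. Lpl partners were at -0.09 without a filter and -0.06 with a mean of at least 5 FPKM (all genes 0.04), and intracellular lipases at -0.21 in replicates 2 and 3 only. With 1 library left out the medians ran from -0.34 to 0.12 (Lpl partners), -0.26 to 0.03 (intracellular lipases), -0.15 to 0.23 (droplet genes), -0.21 to 0.15 (synthesis), -0.15 to 0.33 (fatty acid use) and -0.12 to -0.01 (all genes). The signs of these list medians are thus not firm, and the causes were not tested. Depth limits low genes most in replicate 1, where a listed 0 for Lipe, Plin2 or Hilpda is least informative.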

Other observations

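Further genes of triglyceride storage, named after their values were seen, had values that differed among replicate numbers. Dgat2, which makes triglyceride from diacylglycerol, had 27, 11.1 and 18.6 FPKM in control replicates 1, 2 and 3, against 54.8, 22.1 and 89.0 FPKM with fibrils, higher at each number, with overlapping groups (log2 difference 1.37, limma adjusted p = 0.96, and 0.331 with the replicate block). Bscl2, encoding seipin of the droplet budding site, had 4.82, 4.37 and 4.58 FPKM against 11.1, 4.81 and 14.7 FPKM. Mogat1, an acyltransferase of monoglycerides, was below the level tested, with 1.71, 0.225 and 0 FPKM against 7.48, 0.293 and 0.441 FPKM.

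The regulators of Pnpla2 gave values although Pnpla2 itself was listed at 0. Its activator Abhd5 had 3.02, 3.81 and 4.21 FPKM in control cultures and 2.28, 3.88 and 4.47 FPKM with fibrils. Its inhibitor G0s2 had 8.80, 5.36 and 4.2 FPKM against 12.3, 2.43 and 4.56 FPKM, and its other inhibitor Hilpda had 0, 5.25 and 1.09 FPKM against 0, 1.69 and 7.62 FPKM. The groups overlapped for all 3, with limma adjusted p from 0.983 to 0.994.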
